A study of Mus musculus with 6 samples.

Results

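The genes described here are 44 genes of skeletal muscle that encode the contractile apparatus, the calcium machinery, the energy enzymes and the muscle transcription factors of the myofiber. They were taken by gene symbol from the gene table of the study, which lists 45777 genes, and all 44 symbols were found. The tumors were grafts of B16F10, a mouse melanoma line of C57BL/6 origin, and RNA of 3 tumors from the hind footpad and 3 from the flank skin was sequenced, 1 library for each tumor. Every host carried the Foxn1-/- genotype, which leaves mice without a functional thymus and without a normal coat, and was 8 weeks old, and the labels set the groups apart by the site of the graft alone. The question of the comparison was how the transcriptome of a footpad tumor differs from that of a flank skin tumor. The sources used here do not say how surrounding tissue was separated from the graft. The study's methods describe B16F10 cells injected at both sites of a mouse at the same time, for C57BL/6J hosts. A supplementary figure legend on nuclear shape gives the same design for Foxn1-null hosts. No source says which footpad and flank libraries share a mouse.

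Skeletal muscle contracts when calcium released from the sarcoplasmic reticulum binds troponin on the thin filament and lets myosin heads of the thick filament pull on actin. Fast and slow fibers build this machine from different paralogs: fast fibers use Myh1, Myh2 or Myh4 as the myosin heavy chain with the fast light chains and troponins, and slow fibers use Myh7 with the slow set. Muscle lies close to both graft sites, since small intrinsic muscles run under the sole and a thin striated sheet, the panniculus carnosus, underlies the skin of the mouse trunk.

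Totals assigned to genes ranged from 46529649 to 66364366 reads in a tumor, so that 3 reads corresponded to 0.0437 to 0.0673 CPM (counts scaled to a common library size by the trimmed mean of M-values). Melanocyte markers summed to between 9795 and 24930 CPM in each of the 6 tumors. Footpad replicate 2 stood apart from the other 5 tumors. The 15 keratinocyte markers summed to 1288 CPM in it, against 13.0 and 54.5 CPM in the other footpad tumors and 2.41 to 15.9 CPM in the flank tumors, and 14 of the 15 were highest in it. Results on the muscle genes are therefore given with and without this tumor.

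The muscle reads lay mainly in 1 footpad tumor. The 44 genes together took 430, 1895 and 365 CPM in footpad replicates 1, 2 and 3 and 298, 556 and 352 CPM in flank replicates 1, 2 and 3. Much of the lower values came from Tpm3, a tropomyosin that nonmuscle cells also make, which stood at 206, 210 and 256 CPM in the footpad and 223, 241 and 269 CPM in the flank. With Tpm3 and the intermediate filament gene Des (desmin) set aside, the other 42 genes summed to 215, 1645 and 104 CPM in the footpad tumors and 66.2, 301 and 78.1 CPM in the flank tumors. Footpad replicate 2 thus held 68.3% of the CPM that the 6 tumors had in these 42 genes, and it exceeded the next tumor, flank replicate 2, by 5.47-fold and the lowest, flank replicate 1, by 24.9-fold. In reads, the 42 genes had 112915 in footpad replicate 2 and between 3839 and 17595 in each of the others, or 0.170% of its reads (exact 95% binomial interval 0.169% to 0.171%) against 0.00614% (0.00595% to 0.00634%) in flank replicate 1. Intervals of this kind cover counting error only.

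**Figure D1:**
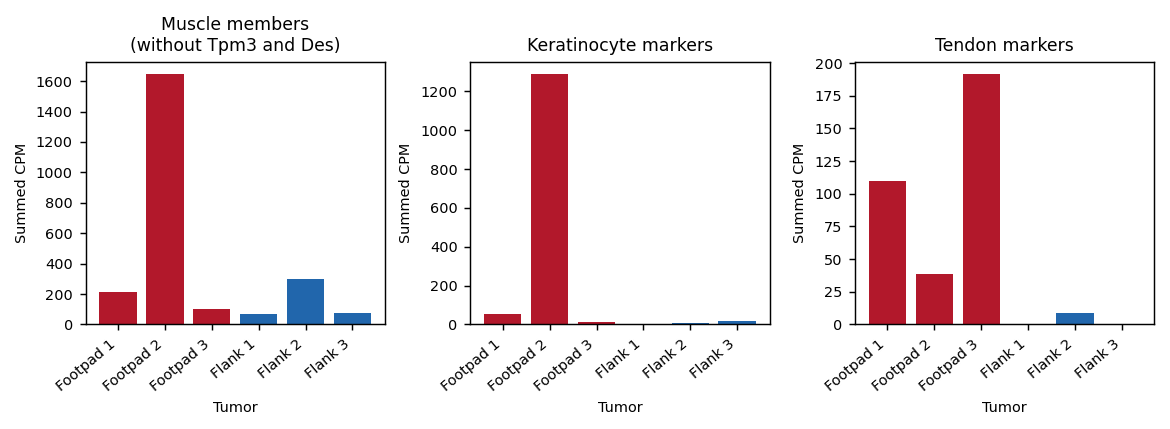
Summed level in each of the 6 tumors, in CPM, of the 42 muscle genes without Tpm3 and Des, of keratinocyte markers and of tendon markers. For the muscle genes, footpad replicate 2 stands at 1645 CPM, and flank replicate 2 follows at 301 CPM. Thbs4 holds nearly all of the tendon sum in the footpad tumors.

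The site did not separate these sums. The log2 of the 44-gene sum was 9.38 ± 1.31 (SD, n = 3) in footpad tumors and 8.60 ± 0.47 (SD, n = 3) in flank tumors, a difference of 0.78 (exact permutation test, two-sided, p = 0.5, where 0.1 is the smallest value that 3 against 3 can give). For the 42 genes the difference was 1.52 (exact permutation p = 0.4). Footpad replicate 3 lay below flank replicate 2 in both sums, so that the groups overlapped. In bulk RNA, fewer muscle cells and less muscle RNA per cell cannot be told apart.

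Gene by gene, 40 of the 44 were highest in footpad replicate 2. Of the 34 genes that passed the filter on low counts and were tested, 32 were, beside 16% of all 17210 genes tested. The exceptions among the 44 were Tpm3, Mybpc2 (the fast myosin-binding protein C), Myh7 and Myod1. The second highest tumor was flank replicate 2 for 24 of the 40 and footpad replicate 1 for 8. The level in footpad replicate 2 exceeded the second highest by 1.11-fold to 39.97-fold, with a median of 4.71-fold.

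**Figure D2:**
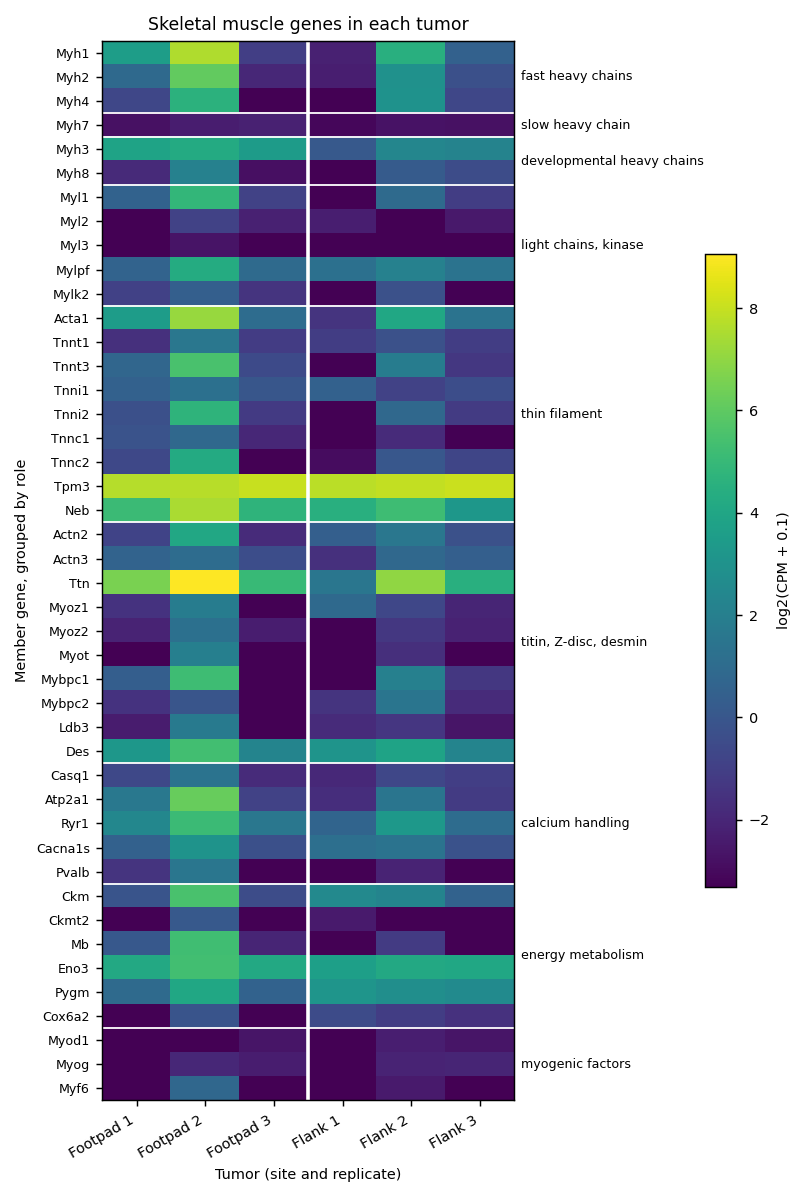
Level of each of the 44 genes in each of the 6 tumors on a log2 CPM scale, ordered by role. The column of footpad replicate 2 is the highest for 40 genes, with flank replicate 2 second for 24 of these.

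Between sites, edgeR's quasi-likelihood test called none of the 34 genes tested (adjusted p under 0.05 and a fold of at least 2), where it called 2.89% of all genes higher and 0.872% lower in footpad tumors. At an unadjusted p under 0.05, 4 of the 34 were higher (Myh3, Mb, Tnnc1 and Atp2a1) and 0 lower, beside 14.8% and 10.5% of all genes. Myh3 was the 1 gene called higher by DESeq2 (6.71% of all genes), by limma on log2(FPKM + 1) (1.57%) and by edgeR without flank replicate 1 (1.3%). DESeq2 gave no adjusted p for 13 of the 34, against 52 of all 17210 genes. The fitted log2 fold change, footpad minus flank, was above 0 for 30 genes and below 0 for 4 (Mybpc2, Cox6a2, Pygm and Tpm3), with a median of 1.76 beside -0.00 over all genes. Without footpad replicate 2 the signs turned: of 33 genes tested, 12 were above 0 and 21 below, with a median of -0.38. All 3 footpad tumors stood above all 3 flank tumors for 2 of the 34 genes, Myh3 and Eno3, and below them for 0, where 17.5% and 15.0% of all genes did so.

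**Figure D3:**
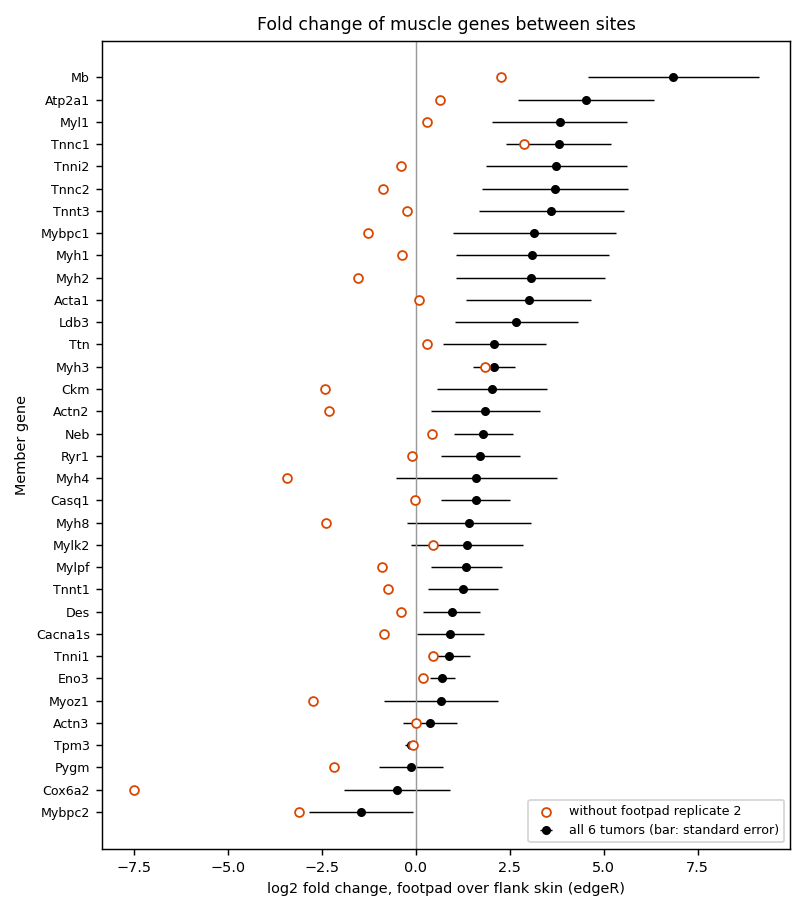
Log2 fold change of each tested muscle gene, footpad minus flank tumors, with all 6 tumors and without footpad replicate 2. The median lies at 1.76 with all tumors and at -0.38 without that tumor.

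The myosin heavy chains, the motors of the thick filament, showed the contrast between fast and slow most clearly. Myh1, the heavy chain of type IIX fibers, had 11.96, 192 and 0.388 CPM in footpad replicates 1 to 3 and 0.121, 22.5 and 1.36 CPM in flank replicates 1 to 3. It ranged over more than 3 orders of magnitude with both sites represented at the low end and at the high end, and its log2 fold change of 3.10 had an SE of 2.03 (edgeR adjusted p = 0.379) and became -0.38 without footpad replicate 2. Myh2, the heavy chain of IIA fibers, had 1.77, 68.1 and 0.163 CPM in the footpad and 0.103, 7.63 and 0.719 CPM in the flank. Myh4, the heavy chain of IIB fibers, had 0.516, 24.6 and 0 CPM in the footpad and 0, 7.73 and 0.527 CPM in the flank. These 3 genes kept 1 order of tumors at the top, footpad replicate 2 and then flank replicate 2.

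Myh7, the heavy chain of slow fibers, was at or near the limit of detection, with 2, 7 and 6 reads in footpad tumors and 1, 3 and 3 reads in flank tumors. Reads of the adult fast heavy chains made up 19558 of 19565 fast and Myh7 reads in footpad replicate 2, or 99.96% (exact 95% interval 99.93% to 99.99%), and 2214 of 2217 in flank replicate 2, or 99.9% (99.6% to 99.97%). The share was 99.7% of 637 reads in footpad replicate 1 and 98.2% of 166 reads in flank replicate 3. Where few reads were left it was 81.8% of 33 reads in footpad replicate 3 (64.5% to 93.0%) and 92.9% of 14 reads in flank replicate 1 (66.1% to 99.8%). Fast heavy chain reads thus exceeded those of Myh7 in all 6 tumors, with wide intervals in the latter 2. The mean share was 93.8% ± 10.4 in footpad and 97.0% ± 3.66 in flank tumors (SD, n = 3 each), a difference within the spread (exact permutation p = 0.9).

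The makeup of the fast heavy chains was not the same in the tumors that held them. Myh4 gave 1689 of 19558 adult fast reads in footpad replicate 2, or 8.64% (8.25% to 9.04%), and 23 of 635 in footpad replicate 1, or 3.62% (2.31% to 5.39%). In flank replicates 2 and 3 it gave 452 of 2214 reads, or 20.4% (18.8% to 22.2%), and 33 of 163, or 20.2% (14.4% to 27.2%). Footpad replicate 3 had 0 of 27 and flank replicate 1 had 0 of 13, with intervals that reach 12.8% and 24.7%. The difference between sites was not tested, since the 2 tumors with fewest reads set no useful value.

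**Figure D4:**
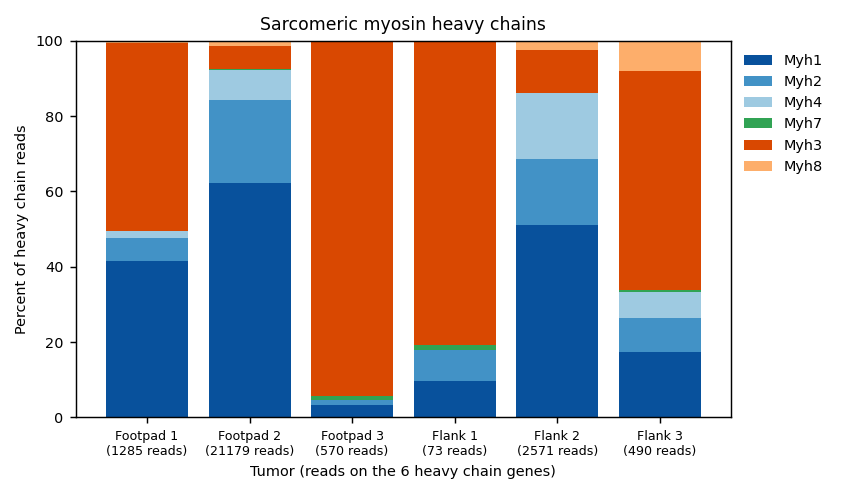
Share of each of 6 myosin heavy chain genes in the reads of all 6, per tumor. Myh1 leads in footpad replicate 2 (62.3%) and flank replicate 2 (51.2%), and Myh3 leads in footpad replicate 3 (93.9%) and flank replicate 1 (80.8%).

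Myh3, the embryonic heavy chain that is made in forming and regenerating fibers, did not follow the adult chains. It had 14.4, 19.2 and 10.9 CPM in footpad tumors and 1.02, 4.98 and 4.54 CPM in flank tumors, so that the sites did not overlap. Its log2 fold change was 2.08 (SE 0.55), and 1.84 without footpad replicate 2. The edgeR adjusted p was 0.0707, and over the other settings and tools it ranged from 0.000779 (DESeq2) to 0.181. Among the reads of 6 heavy chains it took 49.8%, 6.23% and 93.9% in the footpad tumors and 80.8%, 11.3% and 58.0% in the flank tumors. Myh8, the perinatal chain, had 0.179, 4.30 and 0.0408 CPM in the footpad and 0, 1.08 and 0.639 CPM in the flank, with footpad replicate 2 highest. The genes Myh1, Myh2, Myh3, Myh4 and Myh8 lie side by side on chromosome 11 and are close in sequence, so that a read of one can be counted for another to an extent that was not tested.

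The light chains brace the neck of the myosin head. Myl1, the essential light chain of fast fibers, had 1.37, 29.5 and 0.449 CPM in the footpad and 0, 1.83 and 0.383 CPM in the flank, while its slow counterpart Myl3 had 4 reads in footpad replicate 2 and 0 in the other 5 tumors. Mylpf, the fast regulatory light chain, had 1.41, 19.6 and 1.82 CPM in the footpad and 2.26, 4.21 and 2.52 CPM in the flank. Outside footpad replicate 2 it varied far less than Myl1 and was present in every tumor. The slow counterpart Myl2 had 0, 31 and 6 reads in the footpad and 6, 0 and 5 reads in the flank. Mylk2, the kinase of the regulatory light chain in skeletal muscle, reached 1.22 CPM at most.

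The thin filament is actin with tropomyosin, the 3 troponins and nebulin. Acta1, skeletal muscle alpha-actin, had 11.6, 140 and 2.0 CPM in the footpad and 0.259, 16.5 and 2.51 CPM in the flank. Its log2 fold change was 3.001 (SE 1.66, edgeR adjusted p = 0.301) and 0.08 without footpad replicate 2. Neb, the ruler of thin filament length, had 35.2, 177 and 26.5 CPM in the footpad and 22.5, 37.1 and 9.26 CPM in the flank. Both genes overlapped between sites, and both were highest in footpad replicate 2.

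The fast troponins were among the genes held most by a single tumor. Tnnt3, which anchors troponin to tropomyosin, had 1.62, 45.1 and 0.592 CPM in the footpad and 0, 3.61 and 0.304 CPM in the flank. Tnni2, the inhibitory subunit, had 0.718, 26.2 and 0.326 CPM in the footpad and 0, 1.69 and 0.351 CPM in the flank. Tnnc2, the calcium-binding subunit, had 0.538, 18.7 and 0 CPM in the footpad and 0.0345, 0.940 and 0.495 CPM in the flank. Footpad replicate 2 thus held 89.5% of the CPM of Tnni2 and 90.3% of that of Tnnc2, and flank replicate 2 came next for all 3 genes. The slow Tnni1 was spread more evenly, with 1.35, 2.27 and 0.898 CPM in the footpad and 1.34, 0.445 and 0.655 CPM in the flank. The slow Tnnt1 had 0.224, 2.94 and 0.367 CPM in the footpad and 0.379, 0.735 and 0.383 CPM in the flank. Both slow genes overlapped between sites. Tnnc1, the troponin C of slow fibers and of the heart, had 0.785, 1.72 and 0.163 CPM in the footpad and 0, 0.188 and 0 CPM in the flank (log2 fold change 3.802, SE 1.40, edgeR adjusted p = 0.147). Of 7 heart muscle markers, which summed to 11.6, 18.7 and 14.5 CPM in the footpad and 26.1, 8.96 and 7.81 CPM in the flank, Nppb held nearly all of the sum. Myh6 had 7, 4 and 0 reads in the footpad and 0, 2 and 0 in the flank, and Mybpc3 had 14, 3 and 0 reads in the footpad and 0 in the flank. Ryr2 had 13 reads, all in flank replicate 1, and Nppa, Tnni3 and Myl7 had 0 in all 6 tumors. The part of heart-type transcripts in the Tnnc1 values was not tested.

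Fast and slow paralogs were compared per length, in FPKM, in 7 pairs or groups: heavy chains, both light chains, the 3 troponins and the calsarcins Myoz1 and Myoz2 of the Z-disc. The fast genes summed to 7.35, 204 and 3.52 FPKM in the footpad tumors and 3.59, 20.7 and 5.15 FPKM in the flank tumors, and the slow genes to 1.92, 8.88 and 1.17 FPKM and 1.18, 1.34 and 0.823 FPKM. In the sum of these 7 groups, fast genes prevailed in every tumor. Their share of the paired FPKM was 79.3%, 95.8% and 75.1% in the footpad and 75.4%, 93.9% and 86.2% in the flank. The means were 83.4% ± 10.97 and 85.2% ± 9.33 (SD, n = 3 each), a difference of -1.78 percentage points that was smaller than the spread (exact permutation p = 0.9). The myosin-binding protein C genes were outside the 7 pairs. The slow-type Mybpc1 had 0.229, 8.57 and 0 FPKM in the footpad and 0, 0.994 and 0.0601 FPKM in the flank. The fast Mybpc2 had 0.0345, 0.149 and 0 FPKM in the footpad and 0.0377, 0.654 and 0.0447 FPKM in the flank.

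The fast share rested on different genes in tumors rich and poor in muscle reads. In the 2 tumors with most muscle reads, footpad replicate 2 and flank replicate 2, the fast member was above the slow one in 7 of 7 pairs. In the other tumors it was above in 4 or 5 pairs. Flank replicate 1 had a value for only 6 pairs, and its troponin C pair rested on 2 reads of Tnnc2. Outside the 7 pairs, the slow-type Mybpc1 exceeded the fast Mybpc2 in footpad replicate 2 and flank replicate 2. The slow Tnni1 exceeded Tnni2 in footpad replicates 1 and 3 and in flank replicates 1 and 3. In flank replicate 1, Mylpf (2.41 FPKM) and Myoz1 (1.12 FPKM) made up nearly all of the fast 3.59 FPKM. With the regulatory light chains left out, a choice made after seeing these values, the fast share became 75.1%, 95.6% and 56.2% in the footpad and 53.1%, 92.0% and 72.9% in the flank.

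**Figure D5:**
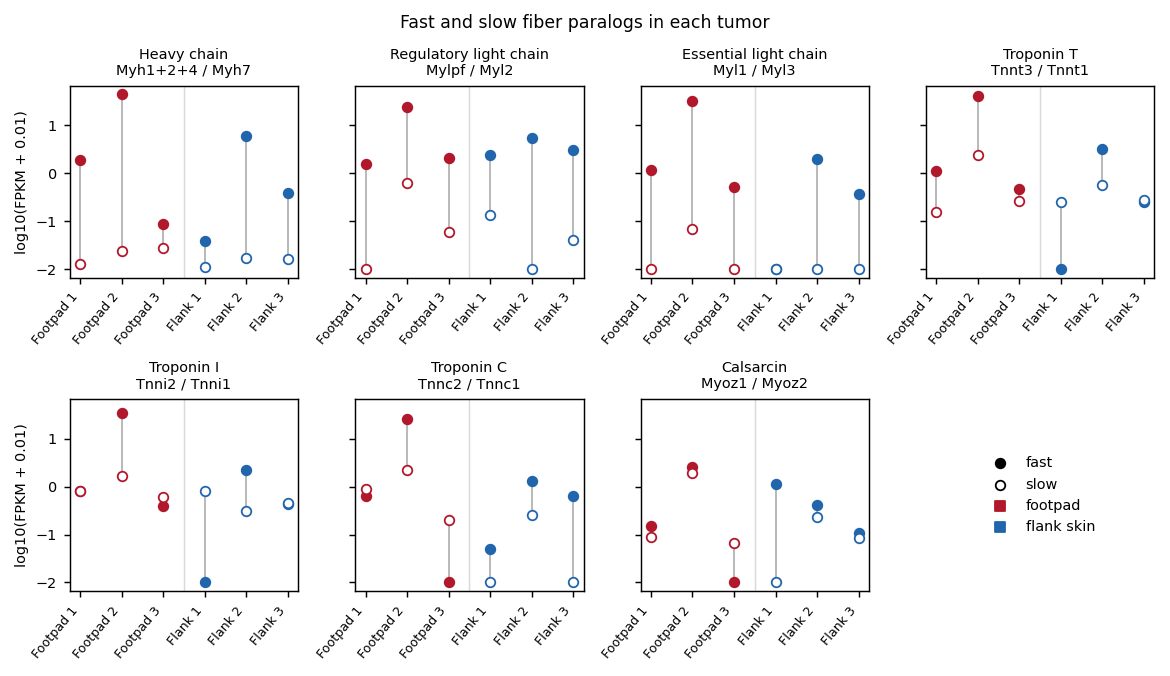
Fast and slow paralogs of 7 pairs in each tumor, in FPKM. The fast sum exceeds the slow sum in every tumor, and by most in footpad replicate 2 (204 against 8.88 FPKM) and flank replicate 2 (20.7 against 1.34 FPKM).

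Titin, the Z-disc and the proteins that bind myosin were likewise highest in footpad replicate 2, with Mybpc2 as the exception. Ttn, the giant spring between the Z-disc and the middle of the sarcomere, had 95.4, 536 and 32.8 CPM in the footpad and 2.78, 130 and 22.8 CPM in the flank. Its log2 fold change was 2.09 (SE 1.36) with all tumors and 0.30 without footpad replicate 2. Mybpc1, the slow-type myosin-binding protein C, had 1.21, 37.4 and 0 CPM in the footpad and 0, 4.05 and 0.304 CPM in the flank. Mybpc2, its fast paralog, went the other way among the 2 richest tumors, with 0.874 CPM in footpad replicate 2 and 2.70 CPM in flank replicate 2. The sites overlapped for these 3 genes.

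At the Z-disc, Actn2, the alpha-actinin of all fibers, had 0.471, 16.9 and 0.184 CPM in the footpad and 1.22, 2.91 and 0.751 CPM in the flank. Actn3, the alpha-actinin of fast fibers, had 1.46, 2.01 and 0.673 CPM in the footpad and 0.224, 1.69 and 1.25 CPM in the flank. Actn3 hardly set footpad replicate 2 apart, at 1.19-fold over flank replicate 2, where Actn2 did so by 5.82-fold. The calsarcin of fast fibers, Myoz1, had 0.247, 3.60 and 0 CPM in the footpad and 1.78, 0.530 and 0.144 CPM in the flank. The slow calsarcin Myoz2 had 0.135, 2.30 and 0.102 CPM in the footpad and 0, 0.308 and 0.128 CPM in the flank. Flank replicate 1 was second for Myoz1 and had no read of Myoz2. Des, which links Z-discs and is also made by smooth muscle and pericytes, had 9.47, 39.5 and 4.65 CPM in the footpad and 8.36, 14.5 and 4.78 CPM in the flank. Ldb3 (cypher) and Myot (myotilin), further Z-disc proteins, had 3.37 and 3.98 CPM in footpad replicate 2 and at most 0.291 CPM elsewhere.

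All 5 calcium genes were highest in footpad replicate 2. Atp2a1, the SERCA1 pump that returns calcium to the reticulum of fast fibers, had 2.96, 72.3 and 0.449 CPM in the footpad and 0.207, 2.72 and 0.351 CPM in the flank. Its log2 fold change of 4.53 (SE 1.81, edgeR adjusted p = 0.173) was 0.64 without footpad replicate 2. Pvalb, the parvalbumin that buffers calcium in fast fibers, had 12, 194 and 0 reads in the footpad and 0, 8 and 0 in the flank, and did not pass the filter. Casq1, the calcium store of the fast reticulum, had 0.538, 2.54 and 0.184 CPM in the footpad and 0.172, 0.513 and 0.399 CPM in the flank. The release channel Ryr1 had 5.18, 34.6 and 2.92 CPM in the footpad and 1.48, 9.56 and 1.96 CPM in the flank. For Ryr1, and for the voltage sensor Cacna1s (8.20 CPM in footpad replicate 2, 0.714 to 2.496 elsewhere), footpad replicate 2 exceeded the second tumor by 3.62-fold and 3.29-fold, against 24.4-fold for Atp2a1.

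Of the metabolic genes, Mb (myoglobin, the oxygen store of oxidative fibers) had the largest share of its CPM in footpad replicate 2 among the 34 genes tested, 96.4%. It had 0.965, 38.6 and 0.143 CPM in the footpad and 0, 0.342 and 0 CPM in the flank, so that footpad replicate 2 exceeded flank replicate 2 by 113-fold. Its log2 fold change was 6.85 (SE 2.28, edgeR adjusted p = 0.118). Over the 32 genes with at least 20 reads in both of these tumors, the ratio of footpad replicate 2 to flank replicate 2 ran from 0.324 (Mybpc2) to 113 (Mb) with a median of 4.72. The muscle creatine kinase Ckm, which buffers ATP, had 0.830, 45.8 and 0.633 CPM in the footpad and 5.603, 4.65 and 1.41 CPM in the flank. Flank replicates 1 and 2 thus came next after footpad replicate 2, above the other footpad tumors. Its mitochondrial relative Ckmt2 had 68 of its 73 reads in footpad replicate 2.

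Pygm, the muscle glycogen phosphorylase, had 1.84, 16.6 and 1.41 CPM in the footpad and 8.84, 6.91 and 6.02 CPM in the flank. Apart from footpad replicate 2, both footpad tumors lay below all flank tumors. With all tumors its log2 fold change was -0.13 (edgeR adjusted p = 0.942). Without footpad replicate 2 it was -2.16 and was called lower in footpad tumors (edgeR adjusted p = 0.0223, and 0.0223 to 0.987 over all settings), where 1.12% of all genes were so called. Cox6a2, a muscle subunit of cytochrome c oxidase, was also called lower in that fit (edgeR adjusted p = 0.0465), with 0 reads in both remaining footpad tumors and 36, 22 and 15 reads in the flank tumors. Eno3, the muscle enolase, had 17.9, 40.1 and 18.0 CPM in the footpad and 12.4, 17.8 and 16.4 CPM in the flank. The sites do not overlap but nearly touch (log2 fold change 0.71, SE 0.34, edgeR adjusted p = 0.237).

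The myogenic factors, which drive the muscle program, were nearly absent. Myf6, the factor of mature fibers, had 114 of its 119 reads in footpad replicate 2. Myod1, which acts in activated myoblasts, had 0, 0 and 3 reads in the footpad and 0, 6 and 4 in the flank. Myog, which acts in differentiating myoblasts, had 0, 11 and 5 reads in the footpad and 0, 8 and 9 in the flank. These 2 genes did not single out footpad replicate 2, whereas Myf6 did. These 3 were among the 10 genes that were too low to test, with Myh7, Myl2, Myl3, Myoz2, Myot, Pvalb and Ckmt2. In flank replicate 1, 16 of the 44 genes had 0 reads, against 1 in footpad replicate 2.

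Across the 34 tested genes, footpad replicate 2 and flank replicate 2 had like profiles (Pearson r of log2 CPM 0.81, across genes, which are not independent replicates). This likeness was not particular to them, since flank replicate 2 had an r of 0.85 with footpad replicate 1 and 0.86 with flank replicate 3. Pairs of tumors ranged from 0.282 (footpad replicate 2 and flank replicate 1) to 0.875 (footpad replicates 1 and 3). The 9 smooth muscle markers summed to 108, 101 and 92.7 CPM in the footpad and 108, 82.6 and 54.7 CPM in the flank. Of the 9, 5 (Acta2, Myh11, Tagln, Actg2 and Synpo2) were highest in footpad replicate 2, beside 16% of all genes tested. Myh11 (3.12 CPM, against 3.06 CPM in footpad replicate 3) and Actg2 (1.18 CPM, against 1.07 CPM in flank replicate 1) were so by little. Acta2 had 23.7, 41.5 and 34.1 CPM in the footpad and 11.3, 15.7 and 8.39 CPM in the flank. Tendon markers summed to 110, 38.6 and 191 CPM in the footpad and 0.0345, 8.72 and 0.495 CPM in the flank. Thbs4 held nearly all of the footpad sums, with 108, 36.9 and 186 CPM there and 0, 8.45 and 0.272 CPM in the flank. The tendon markers Tnmd, Scx and Mkx had at most 0.437 CPM in any tumor. The part that keratinocyte, smooth muscle, tendon or other host tissue has in the muscle values was not tested.

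A second list of 70 muscle genes outside the 44 was read the same way. Of these, 42 were highest in footpad replicate 2. Of the 54 that passed the filter, 33 were, beside 16% of all genes tested. In edgeR's quasi-likelihood test 2 of the 54 were higher in footpad tumors and 1 lower, beside 2.89% and 0.872% of all genes, and the median log2 fold change was 1.23. DESeq2 called 4 higher and 2 lower, beside 6.71% and 2.05% of all genes. Klhl40, a stabilizer of nebulin, had 10.1, 9.63 and 8.98 CPM in the footpad and 1.50, 2.48 and 2.09 CPM in the flank (log2 fold change 2.24, SE 0.26, edgeR adjusted p = 0.0139). The groups were well apart, and footpad replicate 2 was not the highest. Fabp3, the fatty acid carrier of oxidative muscle and heart, had 7.96, 16.7 and 7.82 CPM in the footpad and 1.31, 1.76 and 3.55 CPM in the flank (log2 fold change 2.29, edgeR adjusted p = 0.041). Cox7a1, a subunit of cytochrome c oxidase in muscle and brown fat, fell, with 1.28, 1.49 and 0.90 CPM in the footpad and 10.8, 2.99 and 5.73 CPM in the flank (log2 fold change -2.41, edgeR adjusted p = 0.04). Leaving out a tumor ended the Klhl40 call in 3 of 6 cases (without footpad replicate 1, footpad replicate 3 or flank replicate 3; edgeR adjusted p up to 0.0703), the Fabp3 call in 6 of 6 (up to 0.119) and the Cox7a1 call in 5 of 6 (up to 0.146). By peak CPM the leading 5 of the list were Tpm1, Art3, Mef2c, Trim63 and Cmya5. Tpm1 (310 to 369 CPM), Art3 (36.9 to 112 CPM), Mef2c (61.4 to 107 CPM) and Trim63 (22.6 to 51.9 CPM) were highest in a flank tumor. Cmya5, a protein of the costamere, had 2.80, 43.5 and 1.16 CPM in the footpad and 0, 2.96 and 0.463 CPM in the flank. Footpad replicate 2 was thus highest and flank replicate 2 second, as for 24 of the 44 genes.

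Since 40 of the 44 genes were highest in the same tumor, upstream sequence is shown for 4 of them, with different roles: the skeletal actin, a fast heavy chain, the creatine kinase and a slow troponin. The RefSeq promoter table (GRCm38.p6) held 42 windows for 34 of the 44 genes, and the 250 bases before each start were searched on both strands, TATAAA on the gene's strand only. CAGCTG, an E-box that the MyoD family binds, was in 19 of 42 windows (45.2%) and in 13.0% of all 32851 windows. It is 1 form of the looser CANNTG, which was in 85.7% and 66.2%. The CArG box, the site of serum response factor, was in 5 of 42 windows (11.9%), from 4 genes, against 1.47%. The MEF2 site was in 2 of 42 (4.76%) against 0.508%. GGAATG, the core that TEAD factors bind, was in 10 of 42 (23.8%) against 12.6%, and TATAAA in 5 of 42 (11.9%) against 7.59%. Windows of the same gene can overlap, as for Tnni1. A match is a description of the letters and not a bound site. Capitals mark the strict E-box, the TEAD core on either strand, the TATA sequence and the CArG box, and each sequence runs 5′ to 3′ on the strand of its gene. Acta1 (chr8:123894776-123895025, minus strand) holds 4 of these, Myh1 (chr11:67199852-67200101, plus strand) holds 2, and Ckm (chr7:19410844-19411093, plus strand) and Tnnc1 (chr14:31208062-31208311, plus strand) hold 1 each.
Acta1: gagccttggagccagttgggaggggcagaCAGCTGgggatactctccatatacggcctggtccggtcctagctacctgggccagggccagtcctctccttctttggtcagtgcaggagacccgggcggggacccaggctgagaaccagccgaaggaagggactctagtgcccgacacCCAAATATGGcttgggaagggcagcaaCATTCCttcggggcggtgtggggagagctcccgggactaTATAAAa
Myh1: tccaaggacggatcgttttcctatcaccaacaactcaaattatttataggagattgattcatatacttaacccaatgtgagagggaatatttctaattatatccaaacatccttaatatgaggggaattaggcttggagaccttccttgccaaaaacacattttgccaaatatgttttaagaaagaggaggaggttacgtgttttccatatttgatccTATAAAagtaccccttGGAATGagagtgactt
Ckm: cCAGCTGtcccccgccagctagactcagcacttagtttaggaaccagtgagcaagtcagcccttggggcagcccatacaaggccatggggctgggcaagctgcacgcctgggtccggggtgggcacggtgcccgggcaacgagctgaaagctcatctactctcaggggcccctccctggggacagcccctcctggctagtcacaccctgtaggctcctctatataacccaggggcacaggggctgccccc
Tnnc1: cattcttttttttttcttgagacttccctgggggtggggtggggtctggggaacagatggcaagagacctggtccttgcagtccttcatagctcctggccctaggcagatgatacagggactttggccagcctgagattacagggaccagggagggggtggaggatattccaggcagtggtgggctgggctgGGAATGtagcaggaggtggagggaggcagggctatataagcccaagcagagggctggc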

How the data were processed

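RNA of 6 tumors was sequenced from TruSeq stranded total RNA libraries. The authors trimmed reads with Trimmomatic, checked them with FastQC 0.11.7 and aligned them to mm10 with HISAT2 2.1.0; the counting program and its strand setting are not given in the sources used here. The deposited read counts per gene were tested, and the deposited FPKM values were used to compare genes per length. Footpad and flank tumors (3 and 3, from the labels) were compared with edgeR 4.0.16 (trimmed mean of M-values scaling, filter on low counts, quasi-likelihood F test, Benjamini-Hochberg adjustment over 17210 genes) in R 4.3.3, at adjusted p under 0.05 and a fold of 2. The SE of a log2 fold change is the absolute change over the root of the F statistic. Sums and shares were compared by two-sided exact permutation tests, and shares of reads carry exact Clopper-Pearson 95% intervals. Alternatives were DESeq2 1.42.0, limma 3.58.1 on log2(FPKM + 1) or log2(FPKM + 0.1), other filters and scaling, a replicate block and leaving out each tumor. The fits were tested on simulated data. No column of the deposited tables held values of samples outside these 6.

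The 44 genes, the lists of other muscle genes and of markers, and the rule for genes given with values in every tumor (the fast and slow pairs, the main sarcomere, calcium, metabolic and myogenic genes, and any gene called; of the second muscle list, genes called and the 5 with the highest CPM; of all others, the 10 most alike in profile) were chosen with earlier results of these data known. Genes named in addition were chosen after their values were seen. Each library is a separate tumor, and the study gives 3 mice for this comparison. The markers of adipocytes summed to between 16.9 and 47.9 CPM and those of Schwann cells to between 380 and 455 CPM.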

Additional observations from a re-analysis of the deposited data

How the results depend on the processing

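Footpad replicate 2 decides the direction of most values. Leaving out each tumor in turn gave a median log2 fold change of the muscle genes from -0.38 (without footpad replicate 2) to 2.57, 0 to 1 genes called higher (Myh3, without flank replicate 1) and 0 to 2 called lower (Pygm and Cox6a2, without footpad replicate 2). DESeq2 and limma on log2(FPKM + 1) each called 1 gene higher. Of the other muscle genes, 0 to 2 were called higher and 0 to 1 lower when a tumor was left out, beside 0% to 3.62% and 0% to 1.12% of all genes, and DESeq2 called 4 and 2, beside 6.71% and 2.05%. The difference in fast share of the 7 pairs, footpad minus flank, ran from -8.00 to 2.59 percentage points, and was 2.98 without the regulatory light chains. That of the heavy chain reads ran from -6.22 to 2.85. The cause was not tested.

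Leave-one-out ranges of log2 fold changes that changed sign were -2.31 to 2.57 for Actn2, -0.0896 to 0.901 for Actn3, -0.38 to 6.505 for Myh1, -1.55 to 5.81 for Myh2, -3.43 to 4.96 for Myh4, -2.37 to 2.23 for Myh8, -0.89 to 1.84 for Mylpf, -0.75 to 1.73 for Tnnt1, -0.24 to 6.65 for Tnnt3, -0.39 to 5.65 for Tnni2 and -0.88 to 4.58 for Tnnc2. They were -2.73 to 1.94 for Myoz1, -1.27 to 6.36 for Mybpc1, -3.09 to 0.74 for Mybpc2, -0.0103 to 2.09 for Casq1, -0.10 to 3.04 for Ryr1, -0.84 to 1.39 for Cacna1s, -2.41 to 2.59 for Ckm, -2.16 to 0.35 for Pygm, -0.38 to 1.44 for Des and -7.50 to 0.0649 for Cox6a2, whose lowest value is set against 2 tumors at 0 reads and is no bound. With limma on log2(FPKM + 0.1), Myoz1 was at -0.29 and Ckm at -0.10.

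Deviations from the site means of same-numbered tumors correlated at 0.0544, -0.0965 and -0.115 over 17210 genes. Those of differently numbered tumors ran from -0.199 to 0.264. With 3 tumors in each site, these values cannot show which tumors share a mouse. With the replicate number as a block, 0 muscle genes of either list were called in either direction, as were 0 of all genes, the median log2 fold change was 1.02, and Actn2 (-0.29), Myoz1 (-1.06) and Ckm (-0.37) changed sign. Depth limits Myh7, Myl2, Myl3, Myod1 and Myog, at 4 to 48 reads in all 6 tumors together.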

Other observations

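Among 13586 genes outside the 44 with a mean of at least 1 CPM, the 10 whose log2 CPM over the 6 tumors was most like the mean of the 34 tested muscle genes were Wwox, Car3, Pdlim3, Klhl41, Grhl1, Fgfr3, 9330102E08Rik, Trdn, Nrap and Gid4 (Pearson r 0.983 to 0.959 over 6 tumors, a description that ranks many genes and that footpad replicate 2 weighs on). Of these, Pdlim3, Klhl41, Trdn and Nrap were in the second muscle list. Car3, the carbonic anhydrase of slow muscle and fat, had 1.53, 30.4 and 0.245 CPM in footpad replicates 1, 2 and 3 and 0.0517, 2.58 and 0.527 CPM in flank replicates 1, 2 and 3. Nrap, which acts in building myofibrils, had 1.01, 26.5 and 0.592 CPM in the footpad and 0.310, 1.57 and 0.639 CPM in the flank. Grhl1, a transcription factor of epidermis, had 1.10, 5.09 and 0.612 CPM in the footpad and 0.414, 1.11 and 0.719 CPM in the flank, so that the list holds an epidermal gene beside those of muscle. Xirp2, a protein of the myofiber's cell junctions, was highest in flank replicate 2 (38.1 CPM) and had 11.4 CPM in footpad replicate 2.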
